A study of Rattus norvegicus with 6 samples.

Results

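The intercalated disc is the junction through which neighbouring heart muscle cells are joined mechanically and electrically, and the transcripts of 10 of its genes were followed here in cultured rat heart cells. The 10 genes were taken by name from the deposited table of 22250 rat genes. They are the connexins Gja1, Gja5 and Gjc1, the desmosomal genes Dsp, Pkp2, Jup, Dsg2 and Dsc2, and the adherens junction genes Cdh2 and Ctnna3. Of these, 8 were matched by name, each to a single row, and all 8 were tested. Pkp2 was not analysed here. Ctnna3 had no row under that name, and rows under other identifiers that point to it are described separately below.

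The cells were wild-type neonatal rat cardiomyocytes, freed with collagenase from the hearts of Sprague-Dawley rats at 1 day of age and cultured in medium with foetal bovine serum. The labels do not say whether hearts were pooled and name no step that enriches muscle cells. The DMSO group (3 libraries) received the solvent and the 3Cl-HBA group (3 libraries) received 3Cl-HBA at 40 µM, both for 48 h. The series title names activation of Hydroxy-carboxylic Acid Receptor 1 in cardiomyocytes, and the comparison asks what the compound changed in their RNA. The labels do not say whether the numbered libraries came from separate cultures or animals, so p-values measure only the spread between these libraries, which may be technical.

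Gap junctions are channels built from connexins, and they pass current from cell to cell. Connexin 43, encoded by Gja1, is the main connexin of working ventricular muscle. Connexin 40 (Gja5) is typical of atrium, conduction system and arterial endothelium, and connexin 45 (Gjc1) of nodal and embryonic myocardium. In the desmosome, the cadherins desmoglein 2 (Dsg2) and desmocollin 2 (Dsc2) meet those of the next cell, plakoglobin (Jup) and plakophilin bind their tails, and desmoplakin (Dsp) ties the plaque to desmin filaments. In the adherens junction, N-cadherin (Cdh2) is tied through catenins to actin, and alpha-T-catenin (Ctnna3) is a catenin of heart muscle that also binds plakophilin 2. Inherited defects of desmosomal genes are a known cause of arrhythmogenic cardiomyopathy.

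The libraries held 13240800 to 17202191 reads assigned to genes, and each 3Cl-HBA library was deeper than each DMSO library. No pair of libraries was so alike as to be duplicates, since chi-square over its degrees of freedom was 2.79 to 5.13. Heart muscle markers were abundant: the 10 genes of the cardiomyocyte list summed to 30545 to 32338 reads per 1000000 (CPM) in DMSO and 30109 to 30865 CPM after 3Cl-HBA. Fibroblast markers summed to 15208 to 16183 and 15342 to 15621 CPM. Markers of mesothelium and epithelium, cells that also build desmosomes, summed to 50.2 to 55.5 and 49.6 to 54.9 CPM. In such mixed cultures fewer cells of a type and less RNA per cell cannot be told apart. Levels below are FPKM, the authors' reads per 1000 bases of gene and per 1000000 reads, which allow a comparison between genes. Fold changes and CPM use scaled library totals (TMM).

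Per length, the transcripts ordered as Cdh2, Gja1, Dsp, Gja5, Jup, Gjc1, Dsg2 and Dsc2. Their means over the 6 libraries were 168, 146, 73.7, 41.1, 40.4, 13.9, 10.1 and 6.44 FPKM. The ranges over libraries did not overlap between neighbours in this order, apart from Gja5 (38.2 to 42.2 FPKM) and Jup (36.9 to 42.5 FPKM), whose ratio lay between 0.982 and 1.05. Cdh2 ranked 392nd of all genes by mean FPKM and Gja1 457th, and Dsc2, the lowest of the 8, ranked 8665th. Reads behind these values ran from 332 for Gjc1 to 12865 for Cdh2 in a library.

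**Figure D1:**
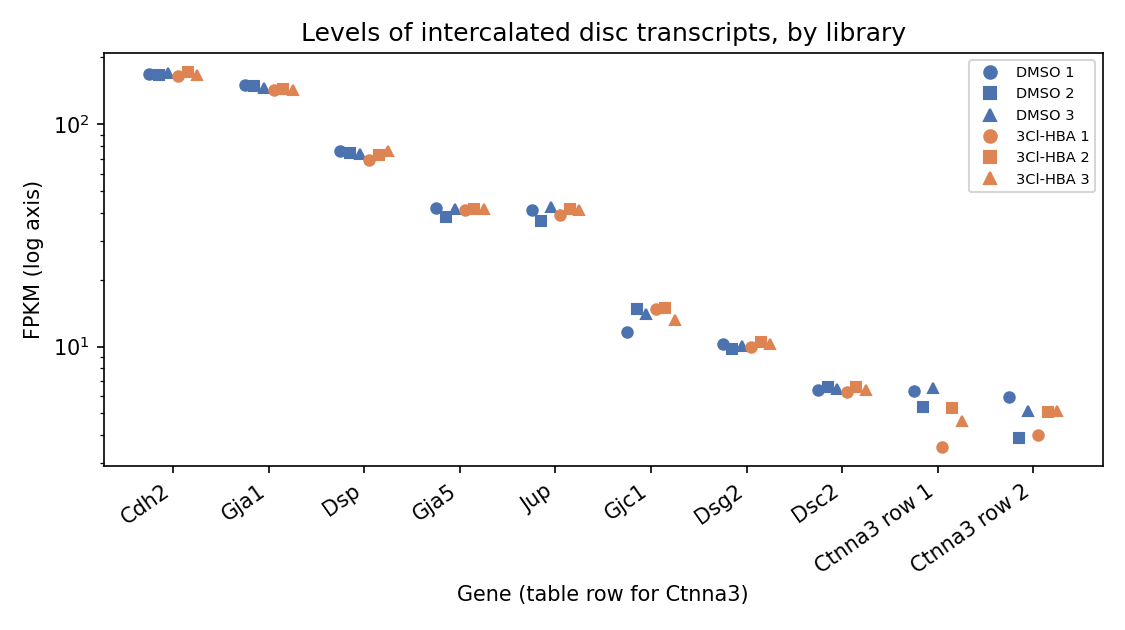
FPKM (log axis) of the 8 matched genes and of the 2 table rows that point to Ctnna3, with 1 point per library (blue, DMSO; orange, 3Cl-HBA). The lowest value of Cdh2 or Gja1 in any library was 142.7 FPKM, and the Ctnna3 rows lay between 3.52 and 6.53 FPKM.

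None of the 8 transcripts differed between DMSO and 3Cl-HBA by the test used, and neither did any other gene. With edgeR's quasi-likelihood test, 0 of 8 had an adjusted p under 0.05, beside 0% (0 of 13903) of all genes tested, and the adjusted p of the 8 ran from 0.984 to 0.998. At an unadjusted p under 0.05 there were 0 of 8, beside 5.11% of all genes, and limma-voom and DESeq2 likewise gave the 8 no adjusted p under 0.05. Log2 fold changes ran from -0.049 (Gja1) to 0.091 (Gjc1), 4 above and 4 below 0, with a median of 0.0068 against -0.00047 over all genes. That median ran from -0.016 (without DMSO replicate 2) to 0.024 (without 3Cl-HBA replicate 1) with single libraries left out, and was also below 0 without DMSO replicate 1 or 3Cl-HBA replicate 2. The 95% intervals were set for each gene alone and cover only the difference between these libraries. Their lowest bound was a 0.882-fold level, for Dsc2, and their highest a 1.21-fold level, for Gjc1. The interval lay inside a 1.3-fold change either way for 8 of 8, and for 67.2% of all genes tested.

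**Figure D2:**
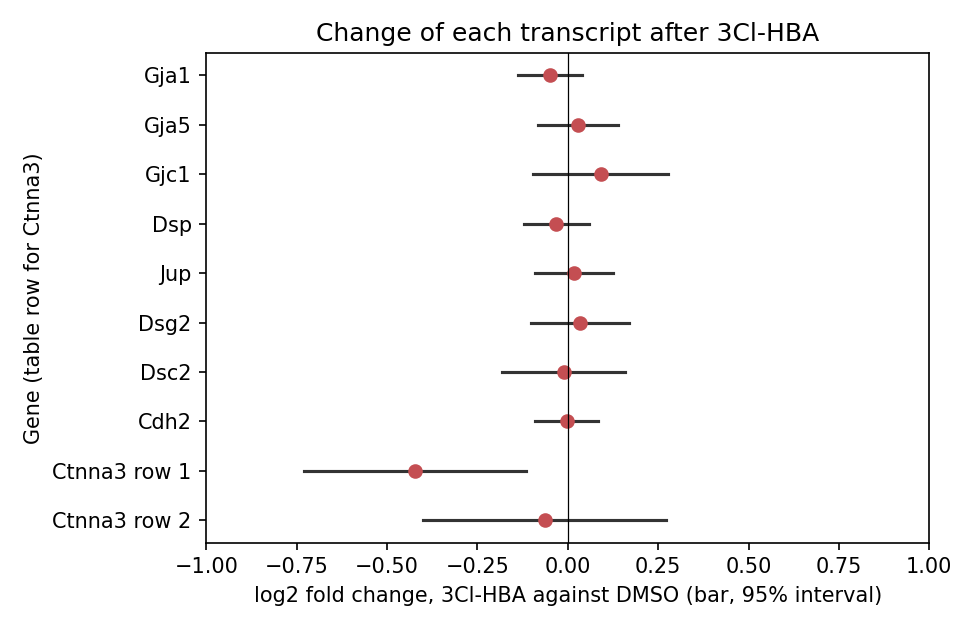
Log2 fold change, 3Cl-HBA against DMSO, of each gene with its 95% interval from edgeR (points, estimates; bars, intervals). The intervals of the 8 matched genes all include 0, and that of the first Ctnna3 row, -0.73 to -0.12, does not.

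Gja1 dominated the connexins. Gja1 (ENSRNOG00000000805, chromosome 20, 37876650 to 37889089, plus strand, 3127 bases, in the coordinates of the table, whose build is not given in the sources used here) showed 151, 148 and 145 FPKM in DMSO and 143, 144 and 143 FPKM after 3Cl-HBA. Each treated library lay below each DMSO library, a pattern that 10.5% of all genes tested showed in either direction and 5.22% in this one. The fold change was 0.967 (95% interval 0.909 to 1.03, edgeR adjusted p 0.984) and did not pass.

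Gja5 (ENSRNOG00000017484, chromosome 2, 199162745 to 199184939, plus strand, 3081 bases) had 42.2, 38.2 and 41.8 FPKM in DMSO and 41.3, 41.6 and 41.4 FPKM after 3Cl-HBA. The treated values fell inside the DMSO range, whose low end was DMSO replicate 2. Its fold change was 1.02 (95% interval 0.945 to 1.10), and without DMSO replicate 2 the log2 value turned from 0.028 to -0.019. Gjc1 (ENSRNOG00000048838, chromosome 10, 90781402 to 90912287, minus strand, 2049 bases) had 11.6, 14.7 and 14.0 FPKM in DMSO and 14.7, 15.0 and 13.2 FPKM after 3Cl-HBA. DMSO replicate 1 was the low library, with 332 reads, and without it the log2 fold change moved from 0.091 to -0.0068. Gjc1 varied most of the 8 over the libraries, with a coefficient of variation of 9.32% in CPM where counting alone gives 4.89%. For Dsc2, with about as many reads, the figures were 2.40% and 4.80%.

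Within the summed FPKM of the 3 connexins, Gja1 held 73.7%, 73.7% and 72.2% in DMSO and 71.8%, 71.7% and 72.3% after 3Cl-HBA. The means were 73.2% ± 0.86 and 71.95% ± 0.33 (SD, n = 3 each), and the groups overlapped through DMSO replicate 3. Gja5 held 20.1% ± 1.00 and 20.9% ± 0.11, and Gjc1 held 6.66% ± 0.87 and 7.20% ± 0.44. The differences, 3Cl-HBA minus DMSO, were -1.27, 0.73 and 0.54 percentage points. A two-sided exact permutation test of the 6 libraries gave p = 0.2, 0.3 and 0.5, or 0.45, 0.45 and 0.50 adjusted over these 3 shares, in a design that cannot give a p under 0.1. From reads in place of FPKM, the Gja5 share was 20.8%, 19.2% and 21.06% in DMSO and 21.08%, 21.09% and 21.2% after 3Cl-HBA, with groups just apart and an exact permutation p of 0.1. With all connexins in the sum, the exact permutation p for Gja5 was 0.4. The Gja1 to Gja5 ratio was 3.58, 3.88 and 3.47 in DMSO and 3.46, 3.45 and 3.45 after 3Cl-HBA. Each treated ratio lay below each DMSO ratio, by a narrow margin against DMSO replicate 3, and the treated range was the narrower with or without DMSO replicate 2. Neither difference in the ratio was tested.

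**Figure D3:**
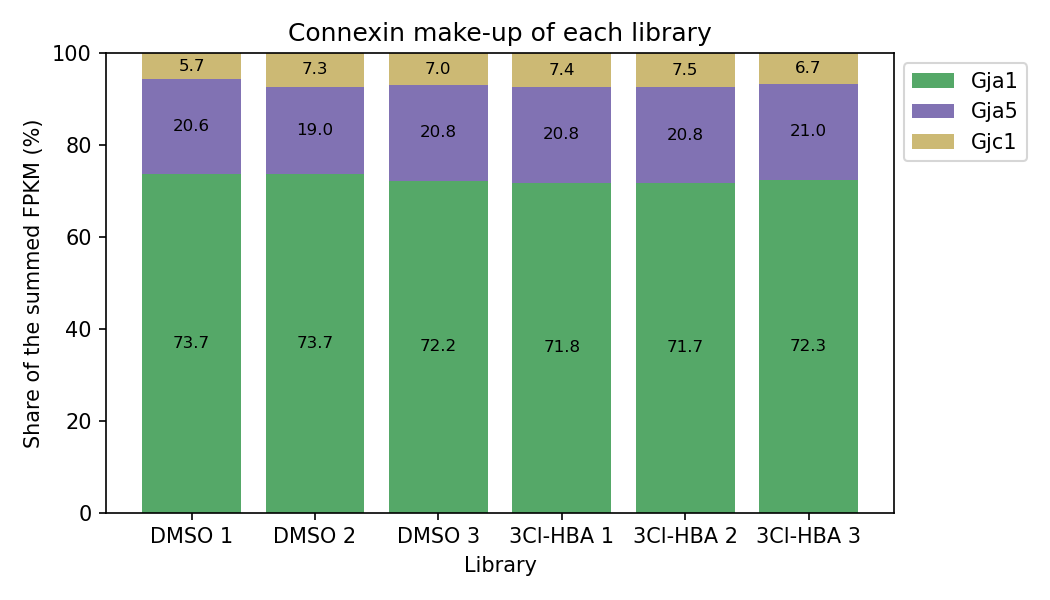
Share (%) of Gja1, Gja5 and Gjc1 in their summed FPKM, with 1 stacked bar per library. Gja1 holds 71.7% to 73.7% in each library, and Gjc1 is lowest, at 5.67%, in DMSO replicate 1.

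The other 16 connexin genes in the table added little. Their summed FPKM was 14.1 to 15.7 per library, against 197 to 205 for the 3 connexins above. Among them, Gja3 (connexin 46) had 3.88 ± 0.51 FPKM in DMSO and 3.60 ± 0.51 FPKM after 3Cl-HBA (SD, n = 3 each). Gjd2 (connexin 36, a connexin of neurons), named after its value was seen, had 0 of the 89225175 reads of the 6 libraries, which allows a level of up to 0.0336 CPM as far as counting goes. Panx1, a pannexin that forms channels to the cell exterior and not gap junctions in most cells, had 5.11 ± 0.27 and 4.89 ± 0.45 FPKM. Of the 9 tested connexins and pannexins on that list 0 passed, with 3 above and 6 below 0 and a median log2 fold change of -0.054.

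The upstream sequences of Gja1 and Gja5 are shown because these were the most abundant connexins and differed 3.45 to 3.88 times in level. Both are from RefSeq, build GRCr8, on the plus strand, and end at the base before the first transcribed base that RefSeq gives for the gene. The Gja1 stretch is chr20:36302314-36302489 (176 bases, 53.4% G and C) and the Gja5 stretch chr2:187290977-187291226 (250 bases, 54.8% G and C). Capitals mark matches, on either strand, to the AP-1 motif TGANTCA, the GC box motif GGGCGG, the E-box motif CANNTG, the motif of GATA factors AGATAA, the NKX core motif AAGTG, the T-box half-site motif GGTGTG or the TATA box motif TATAAA.
Gja1: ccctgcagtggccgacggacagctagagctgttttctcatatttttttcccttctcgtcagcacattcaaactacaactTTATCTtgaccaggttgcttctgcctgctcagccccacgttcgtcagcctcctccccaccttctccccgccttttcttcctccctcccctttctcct
Gja5: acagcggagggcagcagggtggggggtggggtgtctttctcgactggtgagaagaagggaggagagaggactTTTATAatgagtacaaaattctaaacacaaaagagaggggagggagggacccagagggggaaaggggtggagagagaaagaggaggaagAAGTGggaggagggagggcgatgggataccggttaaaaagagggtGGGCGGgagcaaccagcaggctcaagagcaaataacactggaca
The Gja1 stretch held 1 match, to AGATAA, which 7.71% of the 33469 RefSeq promoters hold in a window of that length. The Gja5 stretch held 3 matches, to the TATA box, the NKX core and the GC box, found in 12.9%, 40.6% and 30.5% of promoters in its window. The match to TATAAA was on the minus strand, with 172 bases between it and the end of the stretch. No matches overlapped one another. A match is a description of letters and not of a bound site.

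Of the 4 matched desmosomal members, desmoplakin had the most abundant transcript. Dsp (ENSRNOG00000013928, chromosome 17, 27286796 to 27334379, minus strand, 9567 bases) had 76.0, 74.1 and 73.7 FPKM in DMSO and 69.3, 73.1 and 76.1 FPKM after 3Cl-HBA. The treated libraries held both the lowest and the highest value, so the groups overlapped fully. Its fold change was 0.978 (95% interval 0.920 to 1.04), and the log2 value turned from -0.031 to 0.0069 without 3Cl-HBA replicate 1, the lowest library. Its coefficient of variation was 3.49% in CPM, where counting alone gives 0.979%.

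Plakoglobin, which serves both desmosome and adherens junction, came next. Jup (ENSRNOG00000015380, chromosome 10, 88279632 to 88307412, minus strand, 4440 bases) had 41.3, 36.9 and 42.5 FPKM in DMSO and 39.2, 41.4 and 41.2 FPKM after 3Cl-HBA. DMSO replicate 2 was lowest here too, as it was for Gja5. The fold change was 1.01 (95% interval 0.939 to 1.09), and without DMSO replicate 2 the log2 value turned from 0.017 to -0.045. The coefficient of variation of Jup over the 6 libraries, 5.28% in CPM, was above the 1.94% that counting gives.

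The transcripts of the desmosomal cadherins Dsg2 and Dsc2 were far less abundant than those of Dsp and Jup. Dsg2 (ENSRNOG00000016526, chromosome 18, 15579315 to 15637715, minus strand, 5631 bases) had 10.3, 9.79 and 10.0 FPKM in DMSO and 9.97, 10.5 and 10.2 FPKM after 3Cl-HBA. Dsc2 (ENSRNOG00000039969, chromosome 18, 11826706 to 11858754, minus strand, 4563 bases) had 6.38, 6.58 and 6.46 FPKM in DMSO and 6.23, 6.60 and 6.39 FPKM after 3Cl-HBA. Both genes overlapped between groups, with fold changes of 1.02 (95% interval 0.931 to 1.12) and 0.992 (0.882 to 1.12). The spread of Dsg2 over the libraries, 2.91% in CPM, was also below its counting error of 3.44%. The Dsg2 to Dsc2 ratio was 1.61, 1.49 and 1.55 in DMSO and 1.60, 1.60 and 1.60 after 3Cl-HBA. The Dsp to Dsg2 ratio in FPKM was 6.94 to 7.57, which rests on the deposited gene lengths and is not a count of transcripts. Of the summed FPKM of the 4 genes, Dsp held 56.8% ± 1.33 in DMSO and 56.0% ± 0.73 after 3Cl-HBA, Jup 30.6% ± 1.56 and 31.2% ± 0.38, Dsg2 7.64% ± 0.084 and 7.87% ± 0.22, and Dsc2 4.93% ± 0.21 and 4.92% ± 0.13.

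**Figure D4:**
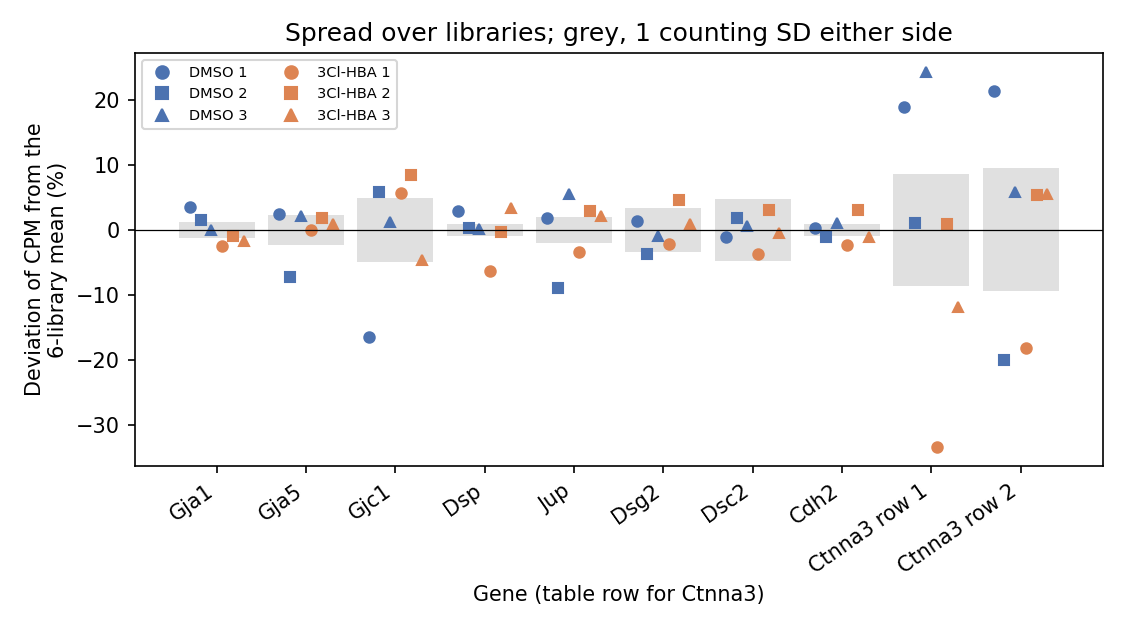
Deviation (%) of each library's CPM from the 6-library mean of the gene, for the 8 matched genes and the 2 Ctnna3 rows (blue, DMSO; orange, 3Cl-HBA); grey boxes reach 1 SD of counting error either side of 0. Points outside their boxes include Dsp and the first Ctnna3 row in 3Cl-HBA replicate 1, Gjc1 in DMSO replicate 1 and Jup and Gja5 in DMSO replicate 2, while all Dsc2 points lie inside.

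Desmogleins and desmocollins other than these differed in how far they were present. Dsg2 held 98.6% to 99.5% of the summed FPKM of the 4 desmogleins in each library. Dsc2 held 64.6% to 68.1% of the desmocollins, and Dsc3, a desmocollin of stratified epithelia, held 28.8% to 34.4%, with 192 to 278 reads and 2.73 to 3.40 FPKM in a library. The mesothelial and epithelial keratin Krt8 was at 5.99 to 8.10 FPKM in these libraries, and the part of such cells in the Dsc3 reads was not tested. Among plakophilins, Pkp4 had 16.1, 18.1 and 15.7 FPKM in DMSO and 17.3, 17.7 and 18.1 FPKM after 3Cl-HBA, and Pkp1 had 8.91, 9.18 and 8.45 and then 7.86, 8.18 and 8.21 FPKM. The Pkp1 groups did not overlap, as for 10.5% of all genes tested, but its log2 fold change of -0.13 had an unadjusted edgeR p of 0.10. Dsc3, Pkp1 and Pkp4 were chosen for mention after their values were seen.

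N-cadherin was the most abundant of the 8 transcripts and the least variable relative to its mean. Cdh2 (ENSRNOG00000015602, chromosome 18, 8146971 to 8360684, minus strand, 4339 bases) had 169, 167 and 169 FPKM in DMSO and 165, 172 and 166 FPKM after 3Cl-HBA. The groups overlapped, with the highest and lowest libraries both treated, and the fold change was 0.998 (95% interval 0.940 to 1.06). Its coefficient of variation was 1.93% in CPM, against 0.963% from counting. Cdh2 held 59.6% to 61.4% of the summed FPKM of 11 cadherins in each library. Next were Cdh13 (T-cadherin, anchored to the membrane without a cytoplasmic tail), at 47.8 ± 2.52 and 48.4 ± 2.41 FPKM, and Cdh11, a cadherin of mesenchymal cells, at 39.2 ± 1.00 and 40.4 ± 0.60 FPKM. Endothelial Cdh5 had 7.45 ± 0.96 and 7.29 ± 0.51 FPKM. Of the 8 tested cadherins on that list 0 passed, 2 above and 6 below 0.

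Alpha-T-catenin was split in the deposited table. The row ENSRNOG00000000378 (chromosome 20, 26516836 to 26589209, minus strand, 1577 bases) is described there as catenin alpha 3, and the row ENSRNOG00000000373 (chromosome 20, 25064702 to 25826658, minus strand, 1770 bases) carries a clone name that RefSeq lists as a synonym of Ctnna3. Both were found after the name search gave no row. The row ENSRNOG00000000373, called the first Ctnna3 row here, had 155, 137 and 153 reads (6.28, 5.34 and 6.53 FPKM) in DMSO and 91, 161 and 129 reads (3.52, 5.29 and 4.63 FPKM) after 3Cl-HBA. Each treated library was below each DMSO library, as for 5.22% of all genes tested, though 3Cl-HBA replicate 2 missed the lowest DMSO value narrowly. Its fold change was 0.746 (95% interval 0.604 to 0.923, edgeR unadjusted p 0.0080, adjusted p 0.959), which did not pass. The log2 value moved from -0.42 to -0.28 without 3Cl-HBA replicate 1, the lowest library. The second row, ENSRNOG00000000378, had 130, 89 and 107 reads (5.91, 3.89 and 5.12 FPKM) in DMSO and 92, 138 and 127 reads (3.99, 5.09 and 5.12 FPKM) after 3Cl-HBA. These groups overlapped, with a fold change of 0.957 (95% interval 0.758 to 1.21). With the reads of both rows summed, a choice made after seeing the data, the fold change was 0.835 (95% interval 0.704 to 0.990, edgeR unadjusted p 0.038, adjusted p 0.959). The difference between the rows was not tested. A gene on the plus strand overlaps the second row and had at most 4 reads in a library.

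The alpha-catenin found in most cell types outnumbered the Ctnna3 rows. Ctnna1 had 368 ± 7.24 FPKM in DMSO and 366 ± 9.58 FPKM after 3Cl-HBA. Per length, Ctnna1 stood at 55.6 to 105 times the first Ctnna3 row and 63.7 to 93.9 times the second. As the rows are parts of a split gene, these ratios may not hold for the whole Ctnna3 transcript. Beta-catenin, Ctnnb1, which links cadherin to alpha-catenin, had 166, 165 and 170.0 FPKM in DMSO and 162, 159.6 and 162 FPKM after 3Cl-HBA. The groups of Ctnnb1 did not overlap, as for 10.5% of all genes tested. The fold was small, at -0.050 on the log2 scale (edgeR unadjusted p 0.28). Ctnnb1 stood at 3.86 to 4.47 times Jup, its close relative. Sorbs2, an adaptor protein of disc and Z-line, had 156 ± 5.31 and 160 ± 9.17 FPKM. Of 18 tested genes of adherens junction and area composita 0 passed, 8 above and 10 below 0, with a median log2 fold change of -0.011.

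Other desmosomal genes and gap junction partners also gave no calls. Among 8 tested desmosomal genes 5 were above and 3 below 0. Desmin (Des), the filament that desmoplakin anchors, had 641 ± 45.1 and 650 ± 16.3 FPKM, and Perp, a membrane protein of desmosomes, 39.4 ± 0.12 and 41.3 ± 2.88 FPKM. Tmem43, an inner nuclear membrane protein whose mutation causes an inherited arrhythmogenic cardiomyopathy, had 48.3, 50.1 and 50.0 FPKM in DMSO and 53.4, 53.6 and 52.6 FPKM after 3Cl-HBA. The groups were apart, with a log2 fold change of 0.11 (edgeR unadjusted p 0.044, adjusted p 0.959). The cytolinker Plec had 22.0, 20.1 and 20.6 FPKM in DMSO and 18.6, 19.2 and 18.4 FPKM after 3Cl-HBA. These groups were apart as well, with a log2 fold change of -0.16 (edgeR unadjusted p 0.0017, adjusted p 0.913). Plec was named because its unadjusted edgeR p was under 0.05, so its separated groups add little. Groups apart were found for 10.5% of all genes tested.

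Of 14 gap junction partners 0 passed, 7 above and 7 below 0. Nedd4, a ubiquitin ligase that acts on connexin 43, had 395 ± 7.91 FPKM in DMSO and 391 ± 9.90 FPKM after 3Cl-HBA. Mapre1, the microtubule end protein that guides connexin delivery, had 84.5 ± 4.93 and 87.3 ± 3.31 FPKM. The caveolin Cav1 had 118, 117 and 118 FPKM in DMSO and 120.5, 129 and 128.5 FPKM after 3Cl-HBA. Its groups were apart, as for 10.5% of all genes tested, with a log2 fold change of 0.098 (edgeR unadjusted p 0.043, adjusted p 0.959).

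Among other genes of the disc, 16 of 17 tested had a log2 fold change below 0, beside 50.2% of all genes tested, and 0 of 17 passed. The median log2 fold change was -0.059, against -0.00047 over all genes. Without 3Cl-HBA replicate 1 the count below 0 was 11 of 17 and the median -0.017, and without DMSO replicate 1 they were 14 and -0.033. Without any other library the count was 15, and the median reached -0.093 without 3Cl-HBA replicate 3. Lrrc10, a heart-restricted leucine-rich repeat protein, had only 11 to 34 reads in a library, and its log2 fold change of -0.83 (95% interval -1.64 to -0.023) came with overlapping groups and moved to -0.38 without DMSO replicate 3. The most abundant of the list were Popdc2, a cAMP-binding membrane protein, at 157 ± 4.48 and 153 ± 6.61 FPKM, the Z-disc protein Ldb3 at 88.0 ± 0.74 and 87.8 ± 2.83, and the actin crosslinker Flnc at 46.7 ± 1.17 and 44.3 ± 0.80 FPKM. The sign of the fold change also went with transcript length across the table: the median length was 5955 bases in the list and 2416 bases over all tested genes, and 66.7% of the 1642 genes over 5000 bases were below 0, against 44.7% of the 5351 under 2000 bases. Of the 10 cardiomyocyte markers, 7 were below 0, with a median of -0.020. An unadjusted edgeR p under 0.05 was reached by 3 of the 10, all lower, beside 5.11% of all genes tested. They were the calcium release channel Ryr2 (log2 fold change -0.17, edgeR adjusted p 0.913) and the natriuretic peptide gene Nppa (-0.13, edgeR adjusted p 0.959). The last was the myosin gene Myh7 (-0.097, edgeR adjusted p 0.959). The groups of Nppa overlapped. Those of Ryr2 and Myh7 were apart, as for 10.5% of all genes tested. DMSO replicate 3 was high for Myh7, at 469.5 FPKM against 420.7 and 418.5 FPKM in the other DMSO libraries. Ryr2, Nppa and Myh7 were named after their values were seen. Tested markers above 0 were 6 of 6 for macrophages and leukocytes and 4 of 4 for Schwann cells and neurons (medians 0.11 and 0.13). They were 2 of 2 for erythroid cells and 4 of 5 for endothelium (medians 0.25 and 0.014). Of the 2 tested erythroid markers 1 was higher at an unadjusted edgeR p under 0.05, which 5.11% of all genes tested reached in either direction. For mesothelium and epithelium they were 5 of 9, for fibroblasts 3 of 8 and for smooth muscle and pericytes 3 of 7. The medians of these last lists were 0.089, -0.023 and -0.0045, and 0 markers of any list passed. The part of length, of muscle cell share or of other cell types in the count of 16 was not tested.

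**Figure D5:**
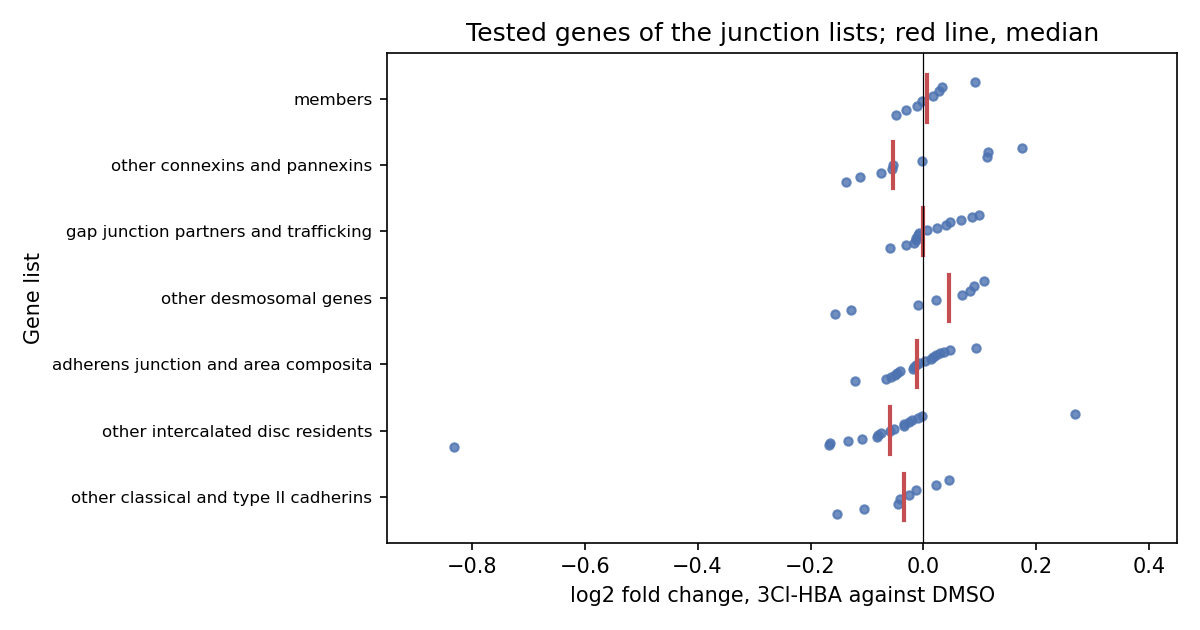
Log2 fold change, 3Cl-HBA against DMSO, of each tested gene in the list of 8 members and in 6 lists of other junction genes (points, genes; red lines, medians). The list of other intercalated disc residents has 16 of 17 points below 0, and its lowest point, at -0.83, is the low-count gene Lrrc10.

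Likeness across libraries was read from the SD, over the 6 libraries, of the log2 CPM ratio of each gene to Gja1 or Dsp, with 11107 genes of 5 CPM or more on average compared. Closest to Gja1 were Tnfaip1, Eif4g1 and Kif1b, with SDs of 0.0136, 0.0136 and 0.0144 against a median of 0.102 over genes. Closest to Dsp were Sdc1, Kdm3a and Myocd, with SDs of 0.0125, 0.0137 and 0.0165 against a median of 0.109. With so many genes compared over 6 libraries some small SDs come without any link, and these are a description only. Among the other members, Cdh2 followed Gja1 most closely (0.0376) and Gjc1 least (0.162). Gja1 followed Dsp most closely (0.0437), and Gjc1 again least (0.177).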

How the data were processed

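RNA of 3 DMSO and 3 3Cl-HBA libraries was prepared with a KAPA RiboErase kit, per the labels' protocols, which also name DESeq2. Which aligner, counting tool, strand setting, build or annotation was used is not given in the sources used here. The deposited table holds whole-number read counts per gene, not normalised, and FPKM computed by the authors, per the file headers. These FPKM equal count over deposited gene length and library total, within a relative gap of 8.2e-08. The deposited gene length in bases is the authors' other column used.

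Counts were fitted in R 4.3.3 with edgeR 4.0.16 (TMM, filterByExpr with a minimum count of 10, robust quasi-likelihood F test, no block) over 13903 genes, Benjamini-Hochberg adjusted, with calls at 0.05. SEs are the log2 fold change over the square root of F. DESeq2 1.42.0 and limma-voom 3.58.1 were alternatives. The procedure was tested on simulated data. Connexin shares were compared by a two-sided exact permutation test. FPKM were otherwise described.

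The members and lists were chosen with earlier results of these data known. Named from each of 6 junction lists were the 3 tested genes with the highest FPKM and those with an unadjusted p under 0.05; others are marked, and some are not reported here. Of 153 list entries 148 were matched, and of the 10 members 8. Of the marker lists, sums in CPM over DMSO and 3Cl-HBA libraries were 2392 to 2626 and 2457 to 2496 for smooth muscle and pericytes, 513 to 592 and 534 to 562 for endothelium (with Cldn5 at 0 reads), 305 to 331 and 330 to 340 for macrophages and leukocytes, 94.9 to 99.1 and 96.1 to 113 for Schwann cells and neurons, and 21.0 to 22.5 and 22.5 to 31.7 for erythroid cells.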

Additional observations from a re-analysis of the deposited data

How the results depend on the processing

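The count of genes called in the whole table, 0, became 2 with no filter on low counts and ran from 0 to 8 when single libraries were left out, and none of these calls was a member. Over 112 alternative values of the 8 members, 102 kept their direction and 10 turned, and the smallest adjusted p was 0.805. Apart from Cdh2 with no filter on low counts, each turn came when a single library was left out. The other alternatives kept all 6 libraries and changed only the processing or model, so the pooled count says little about stability between libraries. Log2 fold changes with single libraries left out ran from -0.064 to -0.037 for Gja1, -0.019 to 0.052 for Gja5, -0.0068 to 0.16 for Gjc1, -0.067 to 0.0069 for Dsp, -0.045 to 0.058 for Jup, 0.0075 to 0.056 for Dsg2, -0.038 to 0.012 for Dsc2 and -0.027 to 0.013 for Cdh2. They ran from -0.57 to -0.28 for the first Ctnna3 row and from -0.22 to 0.079 for the second. With no filter on low counts Cdh2 was at 0.00067 and Ldb3 at 0.0019. Other named genes whose sign turned when a library was left out were Panx1 (-0.13 to 0.0088), Nedd4 (-0.030 to 0.012), Mapre1 (-0.00083 to 0.073), Des (-0.0098 to 0.081), Ctnna1 (-0.027 to 0.0098), Sorbs2 (-0.0056 to 0.084), Ldb3 (-0.033 to 0.017), Cdh13 (-0.0094 to 0.066) and Cdh5 (-0.085 to 0.083). The cause of these turns was not tested beyond the library left out. The Gja1 share difference ran from -1.76 to -1.01 percentage points, that of Gja5 from 0.16 to 1.07 and that of Gjc1 from 0.049 to 0.88. The planned shares from RefSeq coding lengths were not run, as no protein table was used here.

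Same-numbered libraries did not deviate together from their group means, with correlations of -0.11, -0.041 and -0.0085 over genes, so the numbers were not taken as pairs. With the number as a replicate block, 0 genes were called, the adjusted p of the first Ctnna3 row was 0.998 and its log2 fold change -0.43. Among the 8 members and the Ctnna3 rows, counting error was largest for Gjc1, Dsc2 and the Ctnna3 rows, at 4.80% to 9.48% of the level. The spread over libraries in CPM was above counting error for Gjc1 (9.32%) and the Ctnna3 rows (21.1% and 16.0%). For Dsc2 it was below (2.40%).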
